A study of Mus musculus with 12 samples.

Results

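Acid-base transport in the kidney collecting duct depends on intercalated cells, and 10 genes of these cells were examined in newborn mouse kidney. They were *Foxi1*, *Atp6v1b1*, *Atp6v0d2*, *Atp6v1g3*, *Atp6v0a4*, *Slc4a1*, *Slc4a9*, *Slc26a4*, *Car2* and *Rhcg*, chosen by name from a list of proton pump, exchanger and identity genes, and all 10 were found among the 24062 gene rows counted in every kidney. RNA was sequenced from 12 whole kidneys at postnatal day 3, 3 in each of 4 groups. LIN28B Wt1 kidneys (C57BL/6) carried a doxycycline-inducible human *LIN28B* transgene under the control of *Wt1-Cre*, and were compared with littermate control kidneys of the same strain. The paper induced this transgene with doxycycline in the drinking water at several time points. Which of these applied to the sequenced kidneys is not given in the sources used here. *let-7* KO kidneys carried a constitutive deletion of *let-7a1*, *let-7d* and *let-7f1* on a mixed CD1 and C57BL/6 background, and were compared with wild-type (WT) littermates. Each group held 2 kidneys of litter 1 and 1 kidney of litter 2. The genotype of the controls at the transgene alleles, and whether the controls received doxycycline, are not given in the sources used here. In which cells of these kidneys the Cre was active was not measured here.

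Intercalated cells sit between the water- and sodium-handling principal cells of the connecting tubule and collecting duct. Carbonic anhydrase II (*Car2*) hydrates CO2 to a proton and bicarbonate, the vacuolar H+-ATPase moves the proton across the membrane, and an anion exchanger takes the bicarbonate out on the opposite side. Type A cells pump protons into the urine and return bicarbonate to the blood through AE1 (*Slc4a1*), whereas type B cells secrete bicarbonate through apical pendrin (*Slc26a4*) and carry AE4 (*Slc4a9*) basolaterally. *Foxi1* is the forkhead transcription factor that specifies both types, and *Rhcg* is a channel for ammonia. The pump genes *Atp6v1b1* (B1), *Atp6v1g3* (G3), *Atp6v0a4* (a4) and *Atp6v0d2* (d2) encode subunit forms with a restricted tissue range, and most other cells use B2, G1, a1 to a3 and d1.

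2 sets of sequence bear on the comparisons, and both were read from RefSeq tables on GRCm38.p6. The first is the mature form of the 3 deleted miRNAs, shown because all 3 carry the same seed (bases 2 to 8, in capitals) and because *let-7* is the family that LIN28B represses. They lie on the minus strand of chromosome 13.
*let-7a* (chr13:48538239-48538260): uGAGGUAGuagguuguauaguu
*let-7d* (chr13:48536078-48536099): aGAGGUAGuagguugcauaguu
*let-7f* (chr13:48537889-48537910): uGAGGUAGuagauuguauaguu
The 7-base complement of that seed, CTACCTC, was in none of the 10 genes' annotated 3′ untranslated regions, which were between 255 bases (*Slc4a9*) and 1502 bases (*Atp6v1g3*) long. Over all genes of the files with such an annotation, 1602 of 19035 (8.42%) held it. Only this full match was searched, in a single transcript per gene, so shorter or shifted *let-7* sites were not looked for.

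The second set is the promoter of 2 pump genes with the largest and the smallest fold change in the LIN28B Wt1 model. Promoters from 250 bases before to 50 bases after the gene start were matched by symbol for 6 of the 10 genes (*Foxi1*, *Atp6v1b1*, *Atp6v1g3*, *Atp6v0a4*, *Slc26a4* and *Rhcg*). They were searched on both strands for TGTTTAC, the core that forkhead factors such as FOXI1 bind. In capitals below, this core occurred once, in *Atp6v1b1*, on the strand of the gene and 98 bases before its RefSeq start. Gene coordinates given further below come from the GENCODE annotation, where the start of *Atp6v1b1* differs. *Atp6v1g3* is shown beside it and had no match in this window.
*Atp6v1b1* (chr6:83742767-83743066, plus strand): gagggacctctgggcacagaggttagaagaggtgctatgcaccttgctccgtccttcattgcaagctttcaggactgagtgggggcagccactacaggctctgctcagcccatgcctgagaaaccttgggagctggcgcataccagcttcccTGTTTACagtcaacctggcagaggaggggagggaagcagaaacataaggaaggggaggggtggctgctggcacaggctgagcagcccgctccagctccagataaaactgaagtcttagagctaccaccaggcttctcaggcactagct
*Atp6v1g3* (chr1:138273488-138273787, plus strand): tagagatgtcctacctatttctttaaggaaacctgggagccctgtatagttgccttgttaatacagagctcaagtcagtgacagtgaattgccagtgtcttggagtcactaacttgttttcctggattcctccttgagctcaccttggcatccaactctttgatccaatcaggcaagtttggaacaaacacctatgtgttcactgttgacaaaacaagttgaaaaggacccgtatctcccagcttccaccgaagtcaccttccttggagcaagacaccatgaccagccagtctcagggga
The core was in 1 of the 6 promoters, and in 3.65% of all 32851 promoters of the table. A match describes letters only and is no measurement of binding.

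Each kidney yielded between 39926235 and 61872736 counts, so a count of 3 stood for between 0.0485 and 0.0751 counts per 1000000 (CPM). All 10 genes were counted well above that in every kidney, with between 104 and 31807 counts, and all 10 passed the filter on low counts. Reads of the mouse *Lin28b* row, which the human transgene can share only in part, numbered 232, 224 and 71 in the LIN28B Wt1 kidneys and at most 33 in any other kidney. The rows of the 3 deleted *let-7* genes held 0 counts in every *let-7* KO kidney and between 0 and 50 elsewhere. At such counts these rows are a weak check of the genotype. Between kidneys of 1 group, no 2 files agreed within counting noise (chi-square per gene between 30.8 and 232). In whole kidney, fewer intercalated cells and less RNA in each cell cannot be told apart.

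Levels were compared between genes only per transcript length, as CPM per 1000 bases of the gene's principal transcript (RPKM). In control kidneys *Car2* was highest at 211 ± 7.04 RPKM (SD, n = 3), followed by *Rhcg* at 91.6 ± 3.18, *Atp6v1b1* at 66.7 ± 5.03 and *Atp6v1g3* at 26.8 ± 1.15. The ranges of these 4 did not meet. Below them came *Foxi1* (17.9 ± 3.47 RPKM), *Atp6v0d2* (13.8 ± 2.33), *Slc4a9* (13.6 ± 1.31), *Atp6v0a4* (11.7 ± 1.65), *Slc26a4* (9.15 ± 3.42) and *Slc4a1* (5.85 ± 2.09), and each of these overlapped its neighbour in the order. *Car2* was first and *Slc4a1* last in all 4 groups. *Rhcg* came next in 3 groups but after *Atp6v1b1* in WT kidneys, where *Atp6v1b1* stood at 65.4 ± 12.5 RPKM and *Rhcg* at 47.1 ± 11.9, with overlapping ranges. In LIN28B Wt1 kidneys *Atp6v1b1*, at 29 ± 7.71 RPKM, overlapped *Atp6v1g3*, at 26.4 ± 6.34. Thus the V1-sector subunits B1 and G3, apart in control kidneys, had similar levels per length in LIN28B Wt1 kidneys. Their ranges also overlapped in *let-7* KO kidneys, at 49.3 ± 6.49 and 39.9 ± 6.19 RPKM, and were apart in WT kidneys.

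**Figure D1:**
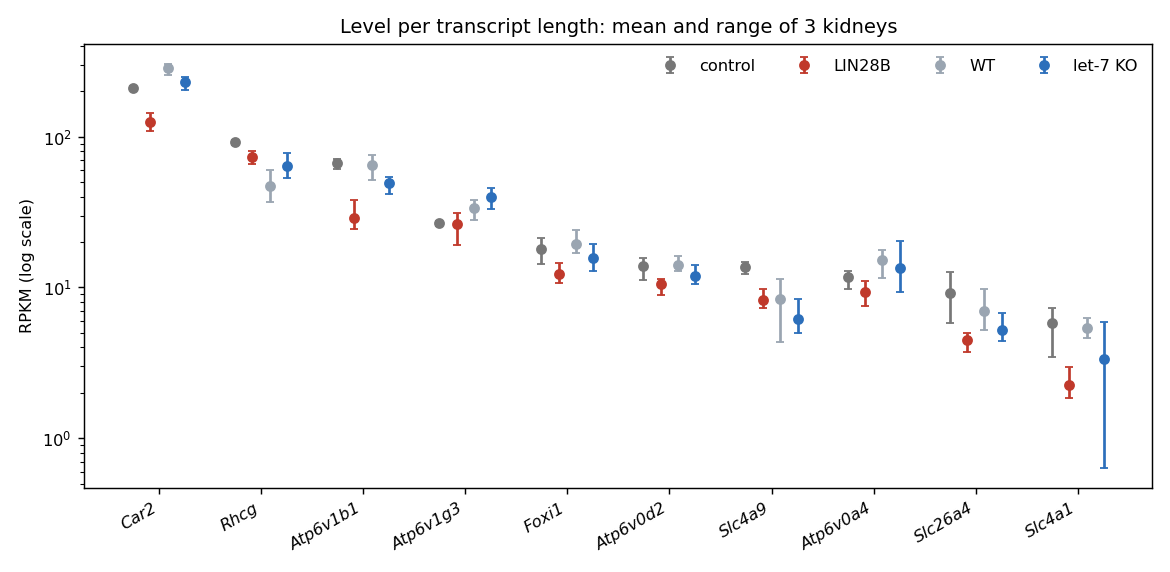
Level per transcript length (RPKM, log axis) of the 10 genes in the 4 groups, ordered by the control group. Points are means of 3 kidneys and bars run from the lowest to the highest kidney. *Car2* is highest and *Slc4a1* lowest in every group, and the LIN28B Wt1 point of *Atp6v1b1* lies near that of *Atp6v1g3*. The bars of *Atp6v1b1* and *Atp6v1g3* also overlap in *let-7* KO kidneys.

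The first comparison asked how the genes stood in LIN28B Wt1 kidneys against their littermate controls. All 10 had a lower fitted level in LIN28B Wt1 kidneys, where 51.5% of all genes tested did. *Atp6v1b1* and *Car2* fell with an adjusted p below 0.05, 2 of 10 genes, where 1.23% of the 15793 genes tested were called in either direction. At an unadjusted p below 0.01, the threshold the study used, 5 of 10 were lower (*Atp6v1b1*, *Car2*, *Slc4a1*, *Slc4a9* and *Slc26a4*), where 4.08% of all genes were. The median log2 fold change was -0.63 over the 10 genes and -0.02 over all genes tested. In 6 of the 10, every LIN28B Wt1 kidney lay below every control kidney, and this held for 13.5% of all genes tested. These 6 were the 5 just named and *Rhcg*.

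**Figure D2:**
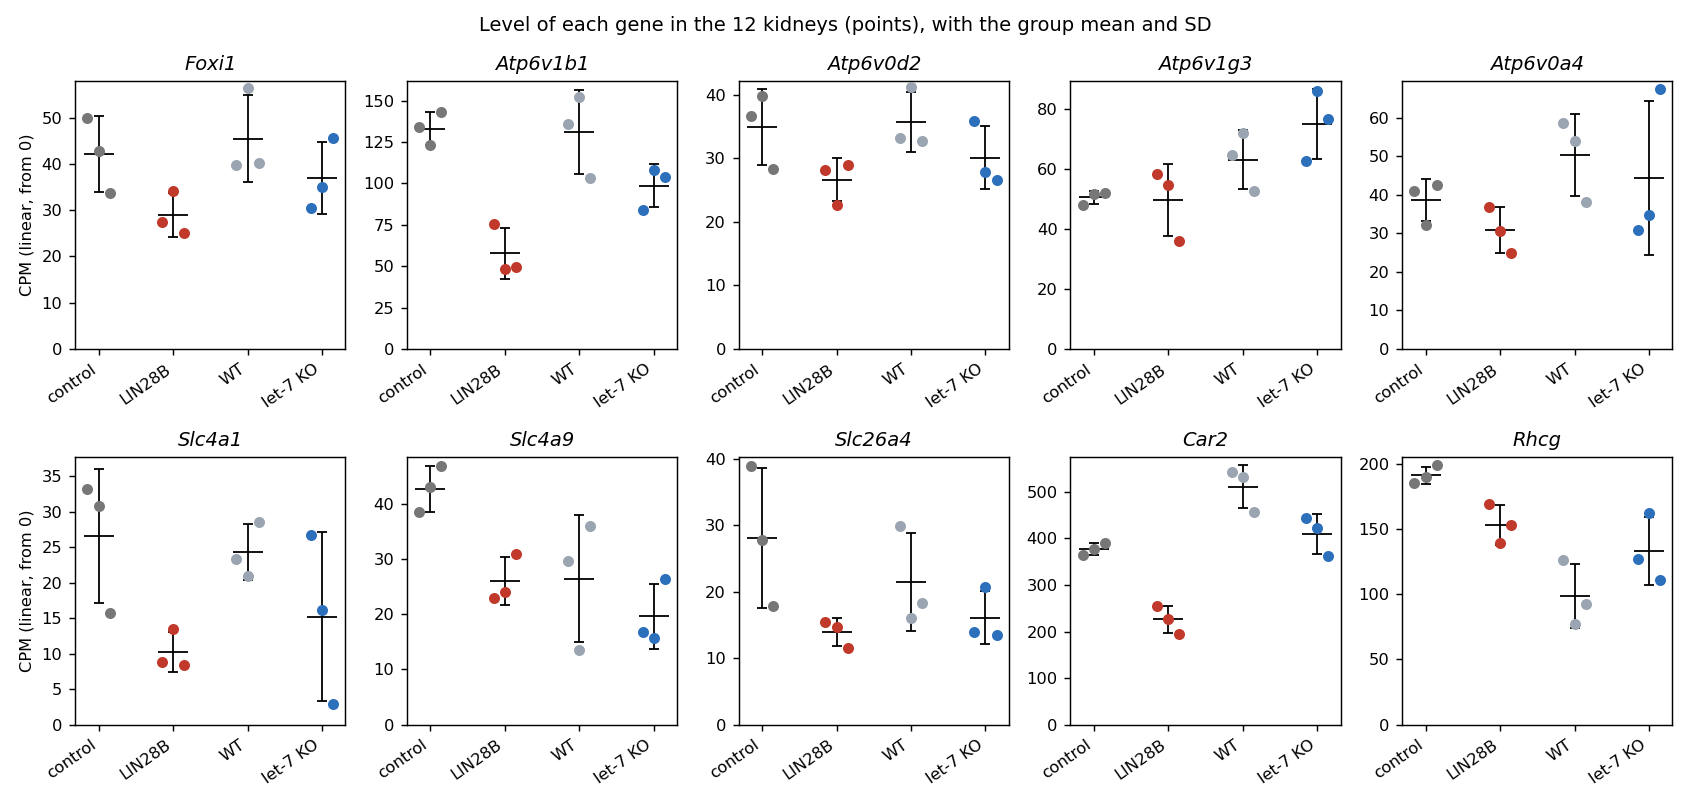
CPM of each gene in every kidney (linear axis from 0), with the mean and SD of the 3 kidneys of each group. Points of a group run from replicate 1 on the left to replicate 3 on the right. In *Atp6v1b1*, *Slc4a1*, *Slc4a9*, *Slc26a4*, *Car2* and *Rhcg* all LIN28B points lie below all control points.

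Among the pump subunits, the change was largest in *Atp6v1b1*, which encodes the B1 subunit of the cytosolic V1 sector, lies at chr6:83742990-83758855 and is mutated in human distal renal tubular acidosis with deafness. Its level was 134, 123 and 143 CPM in the 3 control kidneys and 75.7, 48.5 and 49.5 CPM in the LIN28B Wt1 kidneys. The groups did not overlap, and the mean of the LIN28B Wt1 kidneys was 43.4% of the control mean (log2 fold change -1.20 ± 0.19 SE, adjusted p = 0.0218, edgeR). *Atp6v1g3*, the G3 subunit of the same sector (chr1:138273738-138289462), stood at 48.0, 51.7 and 51.9 CPM in controls and at 58.5, 54.6 and 36.1 CPM in LIN28B Wt1 kidneys. The groups overlapped, with replicate 3 the lowest of the 6 kidneys and the other two above all controls (log2 fold change -0.02 ± 0.20, adjusted p = 0.97).

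The fold changes of the membrane-sector subunits lay between these. *Atp6v0a4* (a4, chr6:38048483-38124586), which sends the pump to the cell surface, was at 40.9, 32.3 and 42.5 CPM in controls and 36.8, 30.7 and 24.9 CPM in LIN28B Wt1 kidneys (log2 fold change -0.32 ± 0.20, adjusted p = 0.454). *Atp6v0d2* (d2, chr4:19876841-19922605) was at 36.7, 39.8 and 28.3 CPM in controls and 28.2, 22.6 and 28.9 CPM in LIN28B Wt1 kidneys (log2 fold change -0.39 ± 0.20, adjusted p = 0.354). Both sets overlapped between the groups, and neither gene passed the test.

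The bicarbonate exchangers had log2 fold changes between -0.72 and -1.37, none with an adjusted p below 0.05. *Slc4a1* (AE1, chr11:102348824-102366203), the type A exchanger, was at 33.2, 30.8 and 15.7 CPM in controls and at 8.82, 13.5 and 8.45 CPM in LIN28B Wt1 kidneys, which did not overlap (log2 fold change -1.37 ± 0.33, adjusted p = 0.0731). Red blood cells also make AE1, so the erythroid list was read beside it. That list summed to between 37.2 and 65.2 CPM in controls and between 43.9 and 75.6 CPM in LIN28B Wt1 kidneys, and 0 of its 5 tested genes was called in edgeR or DESeq2, with 0 at an unadjusted p below 0.05. Its most abundant gene, *Alas2*, the first enzyme of haem synthesis in red cells, had 44.2 ± 10.4 CPM in controls and 49.4 ± 14.4 CPM in LIN28B Wt1 kidneys. The 7 haemoglobin rows held between 0 and 7 counts in any kidney, and 7 of the 16 rows of the list were at 0 in all controls. At such counts the haemoglobin rows cannot be read as a measure of red cells. The sums mostly read *Alas2*, and the part of red cells in the *Slc4a1* values was not tested.

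The exchangers of type B cells had smaller fold changes. *Slc26a4* (pendrin, chr12:31519827-31559969) was at 38.9, 27.7 and 17.9 CPM in controls and 15.4, 14.7 and 11.5 CPM in LIN28B Wt1 kidneys (log2 fold change -1.02 ± 0.29, adjusted p = 0.113). *Slc4a9* (AE4, chr18:36528147-36556273) was at 38.5, 43.0 and 46.8 CPM in controls and 23.0, 24.0 and 30.9 CPM in LIN28B Wt1 kidneys (log2 fold change -0.72 ± 0.19, adjusted p = 0.097). In both genes all LIN28B Wt1 kidneys were below all controls. The type A exchanger and both type B exchangers were thus below the control range in every LIN28B Wt1 kidney, and whether their changes differed from each other was not tested.

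*Car2* (chr3:14886273-14900770) was the most abundant of the 10 genes and was called. It was at 365, 377 and 390 CPM in controls and at 255, 227 and 195 CPM in LIN28B Wt1 kidneys, 59.9% of the control mean (log2 fold change -0.74 ± 0.13, adjusted p = 0.034, edgeR). Carbonic anhydrase II is also made in proximal tubule and other nephron cells, and the proximal tubule list was lower in the same kidneys, as given below. *Rhcg* (chr7:79593363-79617657), found in principal as well as intercalated cells, was at 185, 190 and 199 CPM in controls and 169, 139 and 153 CPM in LIN28B Wt1 kidneys, which did not overlap (log2 fold change -0.32 ± 0.13, adjusted p = 0.238). *Foxi1* (chr11:34204338-34208089) was at 50, 42.7 and 33.7 CPM in controls and 27.4, 34.2 and 25.1 CPM in LIN28B Wt1 kidneys (log2 fold change -0.54 ± 0.21, adjusted p = 0.207). For *Foxi1* the highest LIN28B Wt1 kidney, at 34.2 CPM, was just above the lowest control, at 33.7 CPM.

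Within litters, 9 of the 10 genes were lower in litter 1 and 9 in litter 2, and 8 were lower in both. Litter 2 held 1 kidney of each group, so its signs compare single kidneys. The share of all genes lower within litters was not computed, so these counts have no background. *Atp6v1b1* had a log2 difference of -1.05 in litter 1 and -1.53 in litter 2, and *Car2* of -0.62 and -1.0. *Atp6v1g3* was 0.18 higher in litter 1 and 0.52 lower in litter 2 on the log2 scale (-0.52), and *Atp6v0d2* was at -0.59 and 0.03. With litter as a replicate block the fold changes of *Atp6v1b1* (-1.21 ± 0.21) and *Car2* (-0.74 ± 0.14) stayed close, but their adjusted p rose to 0.0536 and 0.0677, so that 0 of 10 genes was called, where 0.602% of all genes were. Without the block 7 of 10 had an unadjusted p below 0.05, where 18.0% of all genes did, and DESeq2 called 5 of 10 (*Atp6v1b1*, *Car2*, *Slc4a1*, *Slc4a9* and *Slc26a4*), where it called 8.19% of all genes. The calls also changed when single kidneys were left out. The share of all genes called in those smaller fits was not computed. Without any 1 of the 3 controls, or without LIN28B Wt1 replicate 2, 0 genes were called, without replicate 1 the count was 1, and without replicate 3 it was 4, while the log2 fold change of *Atp6v1b1* stayed between -1.44 and -1.07 and that of *Car2* between -0.83 and -0.65. By the exact permutation test, which with 3 against 3 kidneys cannot go below p = 0.1, each of the 6 non-overlapping genes gave p = 0.1.

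**Figure D3:**
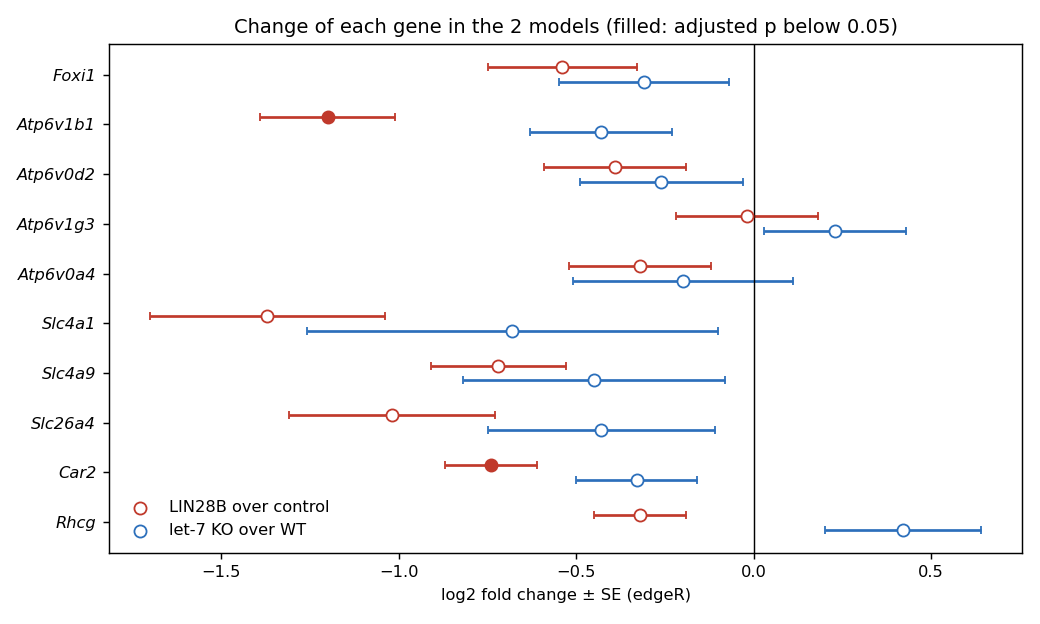
Log2 fold change with its standard error (edgeR) for each gene in the LIN28B Wt1 model (red) and the *let-7* KO model (blue). Filled points have an adjusted p below 0.05, which only *Atp6v1b1* and *Car2* reach, both in the LIN28B Wt1 model.

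The second comparison asked the same of *let-7* KO kidneys against WT littermates. None of the 10 genes was called by edgeR or by DESeq2, and 0 of 10 had an unadjusted p below 0.05, where 10.8% of the 15500 genes tested did and 0.0194% had an adjusted p below 0.05. In 8 of the 10 the fitted level was lower in *let-7* KO kidneys, where 52.0% of all genes were, and the median log2 fold change was -0.32 against -0.02 over all genes. Within litters the direction was less even: 8 were lower in litter 1 and 5 in litter 2, and 5 were lower in both. Here too litter 2 held 1 kidney of each group, and the share of all genes was not computed. In litter 2 the log2 difference was 0.18 for *Foxi1*, 0.01 for *Atp6v1b1* and 0.82 for *Atp6v0a4*. *Atp6v1b1* was at 136, 152 and 103 CPM in WT kidneys and 83.7, 108 and 104 CPM in *let-7* KO kidneys, so that the lowest WT kidney fell among the mutants (log2 fold change -0.43 ± 0.20, adjusted p = 0.469). *Car2* was at 542, 533 and 457 CPM in WT and 445, 423 and 363 CPM in *let-7* KO kidneys (log2 fold change -0.33 ± 0.17, adjusted p = 0.503). It was the single gene of the 10 whose groups did not overlap downwards, where 8.78% of all genes did so.

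*Rhcg* and *Atp6v1g3* had the opposite sign. *Rhcg* was at 126, 77.4 and 92.2 CPM in WT kidneys and 127, 162 and 111 CPM in *let-7* KO kidneys (log2 fold change 0.42 ± 0.22, adjusted p = 0.539). *Atp6v1g3* was at 64.6, 72.2 and 52.8 CPM in WT and 62.8, 86.0 and 76.9 CPM in *let-7* KO kidneys (log2 fold change 0.23 ± 0.20, adjusted p = 0.713). Both overlapped between the groups. *Foxi1* was at 39.7, 56.3 and 40.3 CPM in WT and 30.5, 35 and 45.6 CPM in *let-7* KO kidneys, a log2 fold change of -0.31 ± 0.24 with an adjusted p of 0.67.

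The type A exchanger *Slc4a1* was at 23.4, 20.9 and 28.6 CPM in WT kidneys and at 26.7, 16.1 and 2.90 CPM in *let-7* KO kidneys. The low value was 104 counts in replicate 3, the mutant of litter 2, where the log2 difference within the litter was -3.30 against -0.05 in litter 1. Over all 3 kidneys the log2 fold change was -0.68 ± 0.58 (adjusted p = 0.712), and without that kidney it was -0.19. The erythroid list summed to between 74.1 and 97.6 CPM in *let-7* KO kidneys and between 64.6 and 92.9 CPM in WT, and replicate 3, at 84.3 CPM, was not low in it. *Alas2* alone held 74.6 CPM of the sum in replicate 3, so the sum mostly reads that gene. The part of red cells in the *Slc4a1* value was not tested. *Slc26a4* in replicate 3 was 13.5 CPM, close to the 14 CPM of replicate 1, and *Slc4a9*, at 26.3 CPM, was the highest of the 3.

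*Slc4a9* was at 29.6, 13.6 and 35.9 CPM in WT kidneys against 16.7, 15.7 and 26.3 CPM in *let-7* KO kidneys (log2 fold change -0.45 ± 0.37), and *Slc26a4* at 29.8, 16.1 and 18.3 CPM against 14, 20.7 and 13.5 CPM (log2 fold change -0.43 ± 0.32). *Atp6v0d2* went from 35.7 ± 4.75 to 30.1 ± 5.0 CPM (SD, n = 3). *Atp6v0a4* was at 31, 34.8 and 67.4 CPM in *let-7* KO kidneys and at 58.7, 54.1 and 38.2 CPM in WT. Its mutant replicate 3 was above every WT kidney and the other two below every WT kidney, and its log2 fold change of -0.20 ± 0.31 became -0.62 without that replicate. None of these 4 genes passed the test. In this model short genes were higher and long genes lower (median log2 fold change of 0.25 in the shortest 25% of transcripts and -0.13 in the longest 25%, against 0.14 and -0.06 in the LIN28B Wt1 model). With that trend removed, 8 of the 10 genes were still lower, with a median of -0.28, and in the LIN28B Wt1 model 10 of 10, with a median of -0.57.

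Whether the models differed was tested as an interaction over all 12 kidneys. None of the 10 genes had an adjusted p below 0.05 in edgeR or DESeq2, where 0.00602% of the 16598 genes tested did in edgeR. An unadjusted p below 0.05 was reached by 3 of 10 (*Rhcg*, *Atp6v1b1* and *Car2*), where 6.27% of all genes reached it. The LIN28B Wt1 effect was lower than the *let-7* KO effect by 0.80 ± 0.28 on the log2 scale for *Atp6v1b1* (log2 difference -0.80, adjusted p = 0.673), by 0.76 ± 0.26 for *Rhcg* (-0.76, adjusted p = 0.671) and by 0.42 ± 0.20 for *Car2* (-0.42, adjusted p = 0.796). The other 7 differences lay between -0.70 (*Slc4a1*, SE 0.75) and -0.14 (*Atp6v0a4*, SE 0.40). These data therefore do not separate the models for any single gene of the 10.

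The control and WT groups differed from each other as well. *Rhcg* was at 98.5 ± 24.8 CPM in WT kidneys and 191 ± 6.65 CPM in control kidneys, 51.4% of the control mean (log2 fold change -0.96 ± 0.19, adjusted p = 0.031, edgeR), and was the single gene of the 10 called, where 0.627% of all genes were. This call was lost without any 1 of the 3 controls and without WT replicate 2 or replicate 3, with log2 fold changes between -1.18 and -0.81 over the kidneys left out. *Car2* was higher in WT kidneys, at 511 ± 46.5 against 377 ± 12.6 CPM (log2 fold change 0.44 ± 0.14, adjusted p = 0.266), and *Slc4a9* lower, at 26.4 ± 11.5 against 42.7 ± 4.13 CPM (log2 fold change -0.70 ± 0.31, adjusted p = 0.494). The median over the 10 genes was 0.00. The control kidneys are those of the LIN28B Wt1 comparison and the WT kidneys those of the *let-7* KO comparison, and strain, experiment and library order cannot be told apart. The mean of *Rhcg* in *let-7* KO kidneys was 133 ± 26.1 CPM, and in LIN28B Wt1 kidneys 153 ± 15.1 CPM, so the mean of the latter was the higher although it was below that of its own littermates.

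Proportions between the genes were then followed within each kidney, a comparison chosen after the levels had been seen. Of the 45 ratios that 10 genes form, 12 (26.7%) did not overlap between LIN28B Wt1 and control kidneys, where 22.4% of all gene pairs tested did not, and 6 (13.3%) did not overlap between *let-7* KO and WT kidneys, where 15.6% did not. As a set, then, the ratios stood near the background. *Atp6v1b1* took part in 5 of the 12, and *Atp6v1g3* and *Car2* in 4 each. Of the 45 ratios, 4 did not overlap in either model and lay in the same direction in both: *Atp6v1b1* to *Atp6v1g3*, *Atp6v1b1* to *Rhcg*, *Atp6v1g3* to *Car2*, and *Car2* to *Rhcg*. All 4 set *Atp6v1b1* or *Car2* against *Atp6v1g3* or *Rhcg*, so they are not independent of each other. The share of all gene pairs that did the same in both models was not computed, so this count has no background. The ratio of *Atp6v1b1* to *Atp6v1g3* joins the pump genes with the largest and the smallest fold change in the LIN28B Wt1 model, so it was chosen for its pattern and is given as a description. The ratio of *Atp6v1b1* to *Atp6v1g3* CPM was 2.79, 2.37 and 2.75 in control kidneys and 1.29, 0.888 and 1.37 in LIN28B Wt1 kidneys. It was 2.11, 2.11 and 1.95 in WT kidneys and 1.33, 1.25 and 1.35 in *let-7* KO kidneys. Every mutant kidney was below every littermate in both models. The ratio of *Car2* to *Rhcg* was 1.97, 1.98 and 1.97 in control and 1.51, 1.64 and 1.28 in LIN28B Wt1 kidneys, and 4.31, 6.89 and 4.96 in WT and 3.52, 2.61 and 3.27 in *let-7* KO kidneys.

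The B1 share of B subunit RNA was taken per transcript length from *Atp6v1b1* and its widely expressed paralog *Atp6v1b2*. B1 made up 44.8%, 45.6% and 52.9% in controls and 37.7%, 25.7% and 25.1% in LIN28B Wt1 kidneys, a difference of -18.3 percentage points with no overlap (exact permutation p = 0.1). *Atp6v1b2* itself was at 207 ± 26.7 CPM in controls and 195 ± 16.4 CPM in LIN28B Wt1 kidneys (log2 fold change -0.09 ± 0.14). In *let-7* KO kidneys the B1 share was 34.5%, 40.2% and 48.7% and in WT kidneys 40.0%, 48.7% and 33.1%, which overlapped. There *Atp6v1b2* had a log2 fold change of -0.43 ± 0.20, like that of *Atp6v1b1*. For the other subunits the shares overlapped in both models. G3 held 7.39 ± 0.377% of G1 and G3 RNA in controls and 6.63 ± 0.617% in LIN28B Wt1 kidneys, d2 held 18.1 ± 3.46% and 16.8 ± 3.64% of d1 and d2, and a4 held 28.1 ± 3.68% and 28 ± 7.44% of the a forms. Thus 1 of 4 shares did not overlap in the LIN28B Wt1 model, where 22.4% of the ratios of all gene pairs did not. These measures are not alike, because the shares join chosen paralogs and the a share spans 4 forms. With only 4 shares, no nearness to that percentage can be read.

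**Figure D4:**
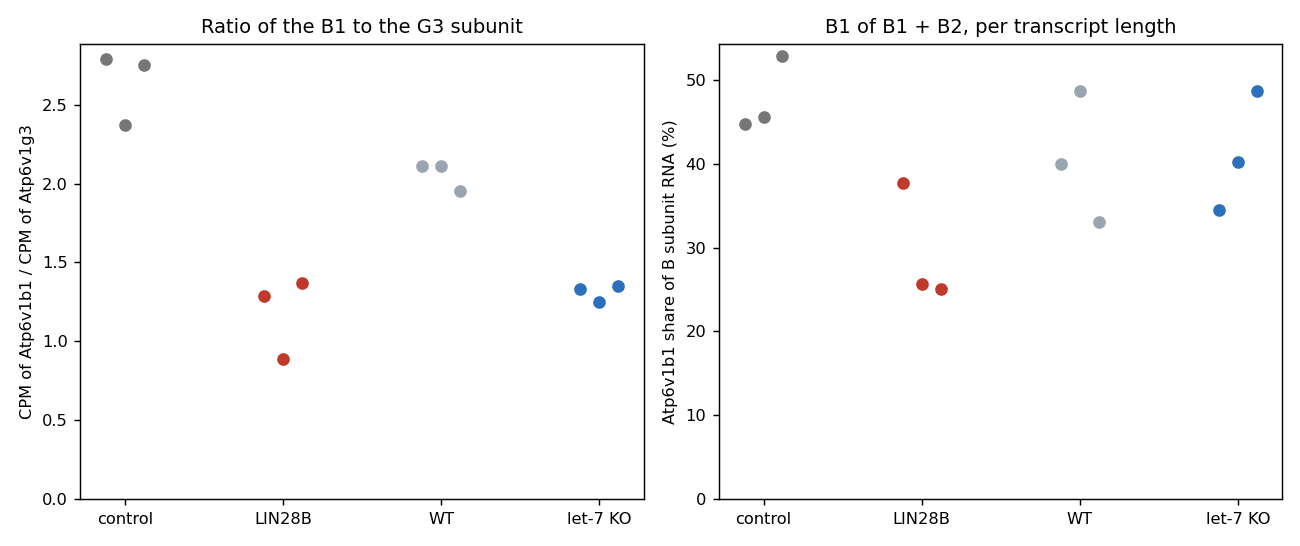
Left, the CPM of *Atp6v1b1* divided by that of *Atp6v1g3* in each kidney. Right, the percentage of B subunit RNA held by *Atp6v1b1* (B1 of B1 and B2, per transcript length). Each point is a kidney and both axes start at 0. The ratio lies below the littermates in all mutants of both models, and the B1 share only in LIN28B Wt1 kidneys.

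Other genes of intercalated cells were taken from a separate list of 19, of which 18 were tested. In LIN28B Wt1 kidneys 17 of the 18 had a lower fitted level, with a median log2 fold change of -0.65, and 1 passed the adjusted threshold (5 by DESeq2, 0 with litter as a block). This was *Oxgr1*, a receptor for 2-oxoglutarate found on type B cells, which went from 20.0 ± 3.95 to 5.92 ± 1.92 CPM (log2 fold change -1.75 ± 0.31, adjusted p = 0.034). At an unadjusted p below 0.01, 4 were lower, *Oxgr1*, *Gpr116*, *Car12* and *Aqp6*, the other genes than *Oxgr1* being named after their values were seen. *Tfcp2l1*, a transcription factor of both collecting duct cell types, was at 192 ± 40.3 CPM in controls and 166 ± 11.1 CPM in LIN28B Wt1 kidneys (adjusted p = 0.589). In *let-7* KO kidneys 14 of the 18 were lower, with a median of -0.43, none called by edgeR (4 at an unadjusted p below 0.05, and 1 by DESeq2). There *Tfcp2l1* was at 194 ± 11.4 CPM in WT and 135 ± 12.4 CPM in *let-7* KO kidneys, which did not overlap (log2 fold change -0.54 ± 0.16, adjusted p = 0.362).

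The housekeeping subunits of the pump had a median nearer 0 in both models. Of 17 tested, 15 were lower in LIN28B Wt1 kidneys, with a median log2 fold change of -0.19, and none was called by edgeR or DESeq2 (2 at an unadjusted p below 0.05). Their summed level was between 3015 and 3142 CPM in controls and between 2554 and 2919 CPM in LIN28B Wt1 kidneys. The 2 most abundant were *Atp6v1g1* (G1), at 382 ± 35.5 and 417 ± 63.8 CPM, and *Atp6v1a*, the catalytic A subunit, at 319 ± 14.8 and 274 ± 30.3 CPM. In the *let-7* KO model 12 of the 17 were lower, with a median of -0.18, none called by edgeR (2 at an unadjusted p below 0.05, and 1 by DESeq2). The lowest was *Atp6v0a1* (a1), named after its values were seen, at 72.7 ± 3.97 CPM in WT and 34.1 ± 8.69 CPM in *let-7* KO kidneys, which did not overlap (log2 fold change -1.11 ± 0.23, adjusted p = 0.275, edgeR). That fold change was larger than any of the 10 acid-base genes had in this model, where the lowest was -0.68.

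The collecting duct as a whole was read through its other cells. Of 10 principal cell genes, 9 were lower in LIN28B Wt1 kidneys, with a median log2 fold change of -0.27, none called by edgeR (4 at an unadjusted p below 0.05, and 1 by DESeq2). The water channels *Aqp2*, at 1082 ± 158 CPM in controls and 997 ± 326 CPM in LIN28B Wt1 kidneys, and *Aqp3*, at 226 ± 7.72 and 204 ± 30.2 CPM, overlapped between the groups. Other genes of the principal cell list, named after their values were seen, did not overlap. In which cells the RNA of these genes, or of *Calb1* below, was made was not measured. *Kcnj1* went from 94.7 ± 25.2 to 48.3 ± 8.38 CPM (log2 fold change -0.97 ± 0.23, adjusted p = 0.0693, edgeR). *Hsd11b2* (-0.50 ± 0.16) and *Scnn1b* (-0.39 ± 0.14) were also lower, and *Elf5* (0.59 ± 0.21) was higher. The median over 8 ureteric epithelium genes was -0.10, again with none called by edgeR (2 at an unadjusted p below 0.05, and 2 by DESeq2), with *Calb1* at 584 ± 86.4 and 351 ± 46.8 CPM and *Wnt11* at 83.8 ± 8.02 and 93.7 ± 12.9 CPM. In *let-7* KO kidneys the principal cell median was 0.15 and the ureteric epithelium median 0.01, with no gene called by edgeR (2 and 1 at an unadjusted p below 0.05, and 0 and 1 by DESeq2). *Aqp2* was at 1947 ± 224 CPM in *let-7* KO and 1309 ± 600 CPM in WT kidneys. Genes of the same lists also stood lower without overlap. *Hsd11b2*, which inactivates glucocorticoids in principal cells and is named after its values were seen, was at 94.1 ± 20.9 CPM in WT and 50.5 ± 13.3 CPM in *let-7* KO kidneys (log2 fold change -0.91 ± 0.25, adjusted p = 0.362), and *Calb1* was at 519 ± 137 and 285 ± 66.7 CPM (log2 fold change -0.88 ± 0.24, adjusted p = 0.362). The median of the intercalated cell genes was thus below those of the other collecting duct lists in both models, and that difference between lists was not tested.

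Markers of the remaining nephron differed in the same LIN28B Wt1 kidneys. All 8 proximal tubule genes were lower, 3 of them called (*Slc34a1*, *Slc22a8* and *Miox*), with a median log2 fold change of -0.95 and a summed level between 1147 and 1434 CPM against between 2651 and 2931 CPM in controls. All 7 thick limb and distal tubule genes were lower, 2 of them called (*Slc12a3* and *Umod*), with a median of -0.98 and sums between 462 and 664 CPM against between 1007 and 1371 CPM. All 6 nephron progenitor genes were higher, 5 of them called (*Six2*, *Cited1*, *Eya1*, *Osr1* and *Crym*), with a median of 1.83 and sums between 326 and 380 CPM against between 65.7 and 82.7 CPM. None of the marker genes of these 3 lists was at 0 in a whole group. In *let-7* KO kidneys no gene of these lists was called by edgeR (3, 2 and 1 at an unadjusted p below 0.05, and 1, 0 and 0 by DESeq2), and the medians were -0.28, -0.48 and 0.79. The macrophage list had a median of -0.31 in the LIN28B Wt1 model and -0.59 in the *let-7* KO model, with none of its 6 genes called by edgeR (2 and 1 at an unadjusted p below 0.05, and 2 and 0 by DESeq2), *C1qb* standing at 41.5 ± 7.41 CPM in controls and 42.5 ± 16.1 CPM in LIN28B Wt1 kidneys and *Csf1r* at 30.9 ± 2.83 and 15.4 ± 4.56 CPM. The part of these cell types in the levels of the 10 genes was not tested.

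**Figure D5:**
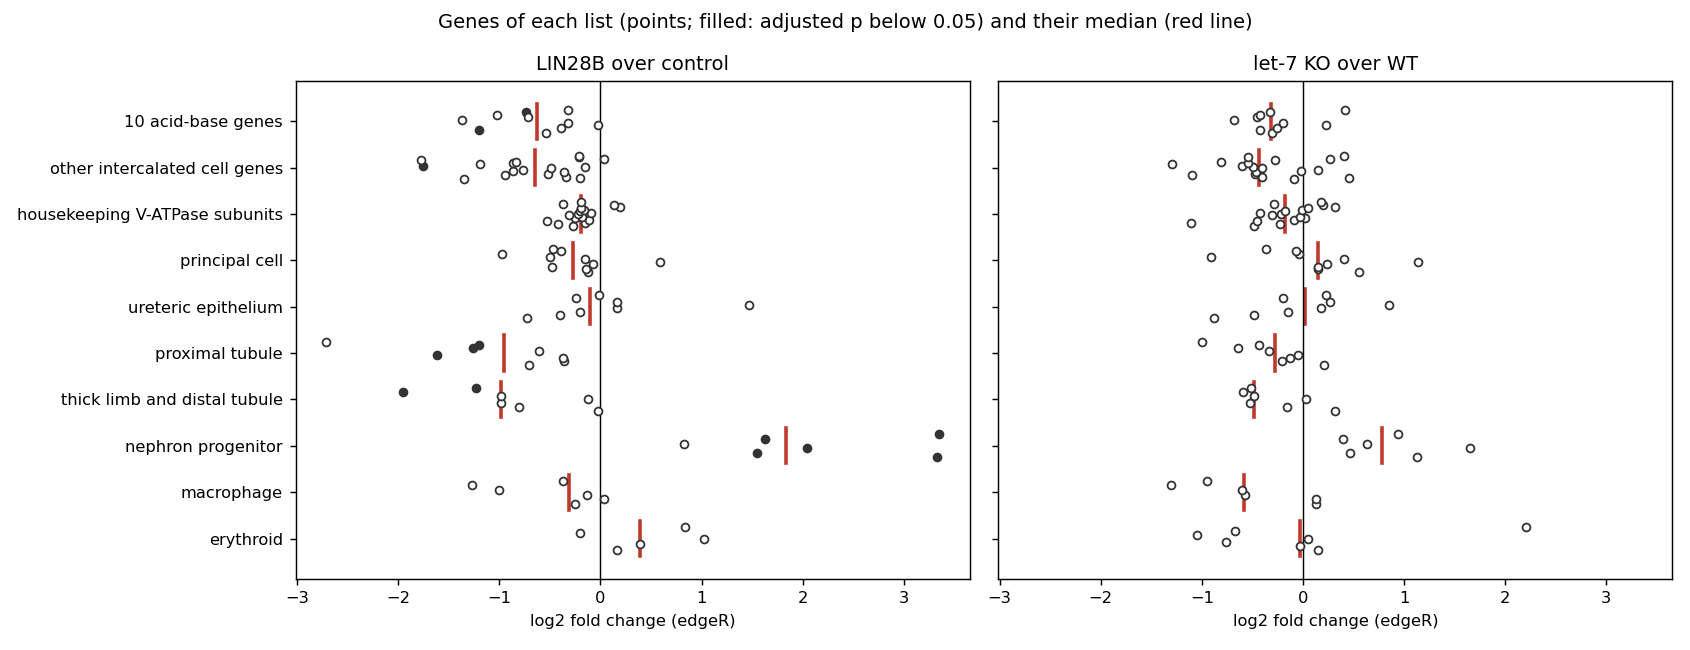
Log2 fold change (edgeR) of each tested gene by list in the LIN28B Wt1 model (left) and the *let-7* KO model (right), on a shared axis. Filled points have an adjusted p below 0.05 and the red line is the median of the list, -0.63 and -0.32 for the 10 acid-base genes. The intercalated cell lists lie between the principal cell list, nearer 0, and the proximal and distal tubule lists in the LIN28B Wt1 model.

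The mean standardised log2 CPM of the 10 genes, which puts each gene on the same scale, was lowest in the 3 LIN28B Wt1 kidneys, at -0.49, -0.78 and -1.10. It was 0.71, 0.56 and 0.24 in controls, 0.62, 0.38 and 0.09 in WT and -0.19, 0.05 and -0.10 in *let-7* KO kidneys. Among the other 16588 genes tested, the 5 whose log2 CPM followed this profile most closely over the 12 kidneys were *Slc43a2* (Pearson r = 0.94), *Fmo2* (0.93), *Acadl* (0.93), *Ugt1a2* (0.92) and *Fam107a* (0.91). *Slc43a2*, an amino acid transporter gene, had means of 64.2, 28.2, 81.0 and 50.2 CPM in control, LIN28B Wt1, WT and *let-7* KO kidneys. *Ugt1a2*, of the glucuronidation enzymes, had means of 126, 28.4, 121 and 69.0 CPM in the same order. The 12 points share litters, groups and depth, and the correlations describe likeness only. None of these 5 genes was on the intercalated cell lists.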

How the data were processed

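Total RNA of whole kidneys was made into libraries with a SMARTer Ultra Low kit and sequenced on an Illumina HiSeq instrument. For every kidney the authors deposited a file of raw read counts by gene symbol, and the submitters' processing notes name cutadapt, TopHat2 2.0.9, Bowtie2, SAMtools 0.1.19, HTSeq and build mm10. The strand option of counting is not given in the sources used here, so antisense reads cannot be told apart.

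Counts were fitted with edgeR 4.0.16 (R 4.3.3): TMM scaling, a low-count filter (10 in the smallest group, 15 in total), the quasi-likelihood test, and Benjamini-Hochberg adjustment over every gene tested. Each model was fitted with its own littermates, and 1 fit of all 12 kidneys served the interaction, the comparison of WT with control, and CPM values. DESeq2 1.42.0 was an alternative. Lengths, coordinates and untranslated regions came from GENCODE M21 on GRCm38, where 94.4% of symbols matched 1 gene. The script was tested on simulated counts.

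The 10 genes and all lists were chosen with earlier results of these data known. Named from other lists were genes with an adjusted p below 0.05 (at most 6 per model) or otherwise the 2 of highest mean CPM. *Tfcp2l1*, *Atp6v1b2*, *Atp6v0a1*, *Hsd11b2*, *Kcnj1*, *Scnn1b*, *Elf5*, *Gpr116*, *Car12*, *Aqp6* and the haemoglobin rows were added after their values were seen. Litter numbers in the titles were taken to mark shared litters and so to pair the kidneys. Deviations from group means correlated at -0.039 within and 0.048 between litters for LIN28B Wt1, and at -0.001 and 0.002 for *let-7*. Such deviations cancel out within a group, so the within and between values are tied and are not independent readings. Neither value within litters was above that between litters.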

Additional observations from a re-analysis of the deposited data

How the results depend on the processing

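The count of the 10 genes called in LIN28B Wt1 kidneys, 2 by the main test, was 5 with DESeq2, 0 with litter as a replicate block, 0 to 4 when a kidney was left out, and 2 or 3 under 2 other scalings, no filter, a strict filter (1 CPM in every kidney), 1 fit of all 12 kidneys and removal of the transcript-length trend. The last was chosen after seeing the data. The causes of these changes were not tested. In WT against control kidneys the count of 1 was 0 to 1 with a kidney left out, and 1 otherwise. In *let-7* KO kidneys and for the difference between models it was 0 under every alternative run, with DESeq2, with the block (*let-7* KO adjusted p between 0.547 and 0.814) and with each kidney left out. In the LIN28B Wt1 model the litter block also took the other intercalated cell genes called from 1 to 0 and the proximal tubule genes from 3 to 4, and left the counts of the other lists as they were. It could not be fitted to WT against control, whose kidneys come from different litters.

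Of 650 single-gene values under alternatives, 12 changed sign, all on leaving out a kidney and none in a comparison where the gene was called. These were *Atp6v1g3* in LIN28B Wt1 kidneys (-0.15 to 0.16), *Slc4a9* (-0.57 to 0.02) and *Atp6v0a4* (-0.34 to 0.30) in the difference between models, and *Slc4a1* (-0.40 to 0.06), *Foxi1* (-0.08 to 0.25), *Atp6v1b1* (-0.15 to 0.11) and *Atp6v0d2* (-0.10 to 0.13) in WT against control. Every error rests on 3 kidneys from 2 litters per group.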
